A study of Homo sapiens with 6 samples.

Results

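The genes described here are the 39 genes of the unfolded protein response and the integrated stress response. They were taken by symbol from a table of 12396 named genes, and all 39 were measured. The cells were JHH-4, an epithelial-like line derived from human liver cancer, sequenced as RNA in 2 groups of 3 libraries. In the miR372_3p group a pri-miRNA plasmid drove overexpression of hsa-miR-372-3p. The Control group has the genotype label WT, and what its cells carried in place of that plasmid is not given in the labels. The replicates are called technical by the series, so each p-value measures the spread between these libraries only, and both groups are a single cell line. The members were divided by role into 7 sensors and regulators, 12 genes of the ATF4 arm, 12 folding genes of the ATF6 arm, 6 genes of the XBP1 arm and 2 oxidases.

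Proteins that fold poorly in the endoplasmic reticulum (ER) are sensed by 3 membrane proteins, PERK (gene EIF2AK3), IRE1 (gene ERN1) and ATF6. PERK phosphorylates the initiation factor eIF2, which lowers general translation while raising translation of the transcription factor ATF4. IRE1 splices XBP1 mRNA into the form that codes for an active factor, and ATF6 is cut to release its own transcription factor domain. Amino acid shortage reaches ATF4 through another eIF2 kinase, GCN2 (gene EIF2AK4), which is why this shared branch is called the integrated stress response. Hepatocytes secrete large amounts of protein and are known for a high ER folding load. Gene-level counts show neither the splicing of XBP1 nor the translation of ATF4 nor the cleavage of ATF6, so what follows concerns mRNA levels.

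Genes of the arms moved in different directions. In the ATF4 arm, 7 of 12 genes were higher in miR372_3p cells than in Control cells and 2 were lower, led by the glutathione-degrading enzyme CHAC1. In the ATF6 arm none of 12 was higher and 7 were lower, among them the chaperones calreticulin (CALR), calnexin (CANX) and BiP (HSPA5). The XBP1 arm split, with 2 genes higher, 2 lower and 2 not past the threshold. These counts rest on the division by role, which was made with earlier results of these data known. It placed XBP1, which was higher and whose promoter holds an ER stress element described below, with the sensors and not in the ATF6 arm. Over all 39 members 11 were higher and 12 lower, which is 59.0% called, against 54.5% of all genes tested (26.8% higher and 27.7% lower; edgeR quasi-likelihood test, Benjamini-Hochberg adjusted p under 0.05). The module as a whole was therefore called about as often as any gene, and its median log2 fold change was −0.02, against 0.00 over all genes (0.001 before rounding). The groups did not overlap in 14 members with miR372_3p above (30.7% of all genes) and 14 with miR372_3p below (31.4%), and 62.2% of all genes did not overlap in either direction.

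**Figure D1:**
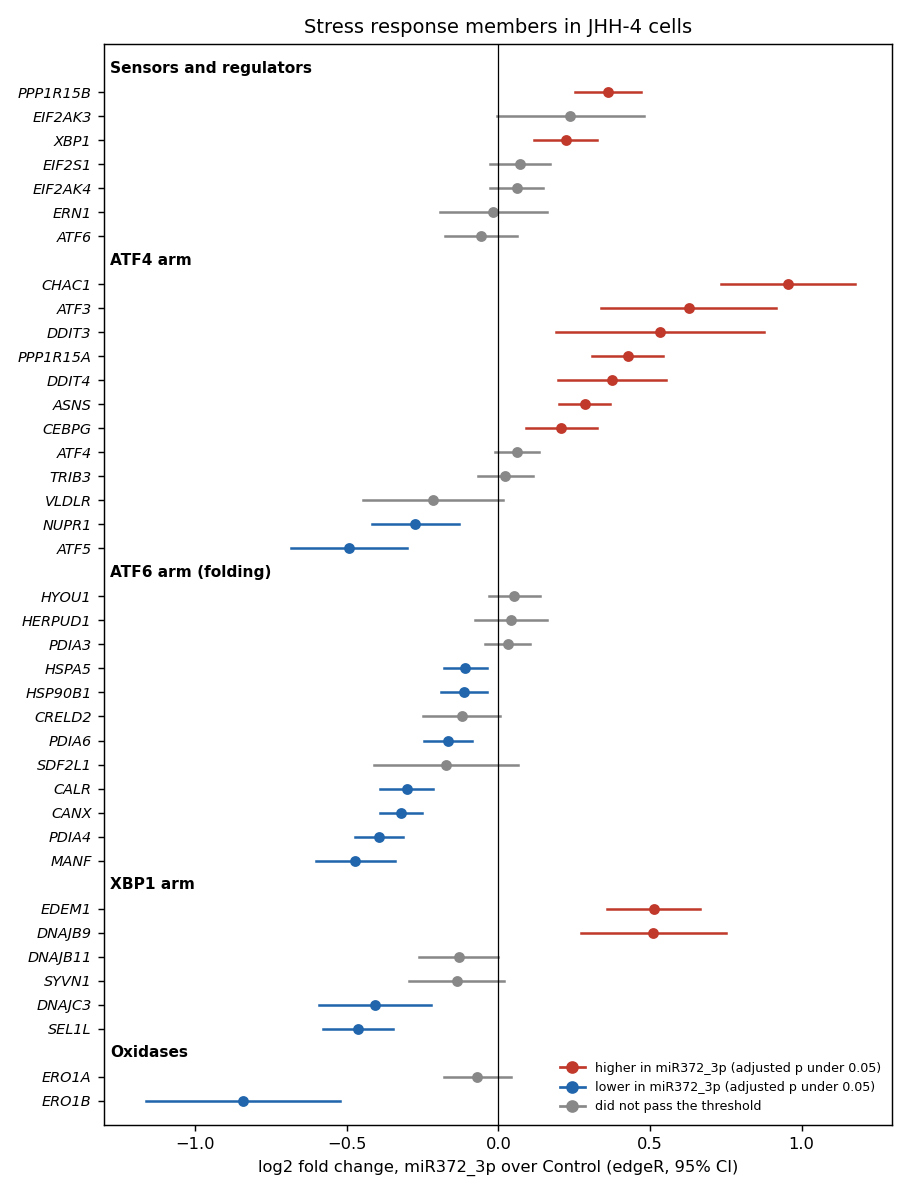
Log2 fold change of each member, miR372_3p over Control, with its 95% confidence interval from edgeR; red marks genes higher, blue genes lower and grey genes not past the adjusted threshold of 0.05. CHAC1 lies farthest right at 0.96 and ERO1B farthest left at −0.84, 7 of 12 points are blue in the ATF6 arm and 7 of 12 are red in the ATF4 arm.

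The changes were small. Only 3 members were called and differed by at least 1.5-fold, CHAC1, ATF3 and ERO1B, where 15.6% of all genes did so. Total counts of named genes ran from 51072581 to 60070397 in miR372_3p libraries and from 46851245 to 47890069 in Control libraries. At this depth HSPA5, which fell by 7.26%, passed the test. CPM values below are counts scaled to the TMM-normalised library size. They are compared between libraries only, for the same gene or the same sum of genes. FPKM values, which the authors scaled by length, are used for levels between genes. A lower value in these bulk libraries can come from fewer cells with the transcript or from less of it per cell, and these cannot be told apart.

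Of 12 hepatocyte markers listed, 5 were measured and the others were not analysed here. The simple-epithelial keratins KRT8 and KRT18 averaged 3320 and 1440 CPM in miR372_3p cells and 1750 and 581 CPM in Control cells, and fibrinogen beta (FGB) 36.4 CPM in miR372_3p cells against 20.9 CPM in Control cells. The liver gene SERPINA1 averaged 1.77 CPM in miR372_3p cells and 8.98 CPM in Control cells. Of 16 markers of blood, endothelial and stromal cells, 6 were measured, none of them at 0. They summed to 212 to 226 CPM in miR372_3p libraries and 136 to 157 CPM in Control libraries. COL1A1 (64.0 against 4.84 CPM) and PDGFRB (20.2 against 9.08 CPM) were higher in miR372_3p cells. The other 4 of these 6 markers did not pass, among them CD68, which averaged 129 CPM in miR372_3p cells and 130 CPM in Control cells. Of the 6 markers, 3 had a negative log2 fold change. Their part in the results below was not tested.

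The overexpressed microRNA, as RefSeq gives it for GRCh38.p14 (chr19:53787931-53787953, plus strand), is shown with its seed, bases 2 to 8, in capitals, because the sites searched for in the members pair with it.
hsa-miR-372-3p: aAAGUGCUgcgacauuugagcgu

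By deposited FPKM, the highest mean in Control cells was that of CALR, an ER lectin that binds calcium, at 298 ± 7.45 FPKM in miR372_3p cells and 366 ± 6.11 FPKM in Control cells (SD, n = 3 each). Its order with ATF4 is not distinguished. CALR had 365, 372 and 360 FPKM in Control replicates 1 to 3, and ATF4 had 383, 376 and 287 FPKM. By mean, ATF4 followed at 334 ± 52.9 FPKM in miR372_3p cells and 349 ± 53.4 FPKM in Control cells. Then came the ER form of HSP90, HSP90B1, at 236 ± 1.58 FPKM against 255 ± 8.08 FPKM. The lowest were EIF2AK3 (2.36 against 1.99 FPKM), ERN1 (1.73 against 1.67 FPKM) and VLDLR (1.03 against 1.34 FPKM). Between the highest and the lowest member the Control means differed 273-fold. In the order of Control means, 22 of 38 neighbouring pairs overlapped over the 3 Control libraries, so many adjacent ranks are not distinguished. The main effectors, chaperones and ATF4 with its targets TRIB3 and PPP1R15A, held the top 8 places, whereas the sensors EIF2AK3 and ERN1 stood near the bottom.

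**Figure D2:**
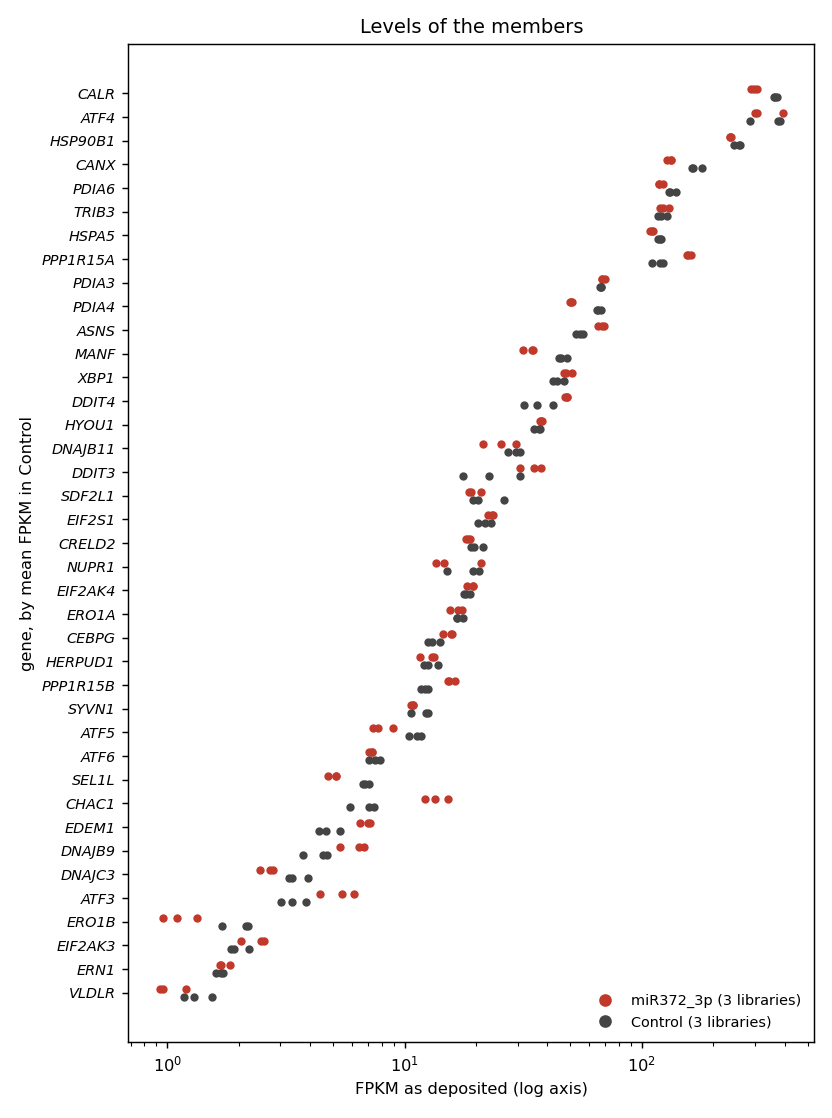
Deposited FPKM (log axis) of every member in each of the 6 libraries, ordered by the mean over Control libraries, with miR372_3p in red and Control in dark grey. Levels span from 1.34 FPKM for VLDLR to 366 FPKM for CALR in Control cells, and the red points of CHAC1 lie clear of the grey ones.

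Among the sensors and regulators, 2 of 7 were higher in miR372_3p cells and none was lower. These calls make up 28.6% of the sensors, where 26.8% of all genes were higher and 54.5% were called in either direction. PPP1R15B, the constitutive subunit that directs a phosphatase to eIF2, had 94.9, 91.4 and 89.5 CPM in miR372_3p replicates 1 to 3, against 74.2, 72.6 and 67.9 CPM in Control replicates 1 to 3. Every miR372_3p library lay above every Control library, and the log2 fold change was 0.36 (SE 0.0486, edgeR adjusted p = 0.000174). XBP1, the transcription factor of the IRE1 branch, had 97.3, 101 and 95.3 CPM in miR372_3p libraries, against 87.6, 80.5 and 83.4 CPM in Control libraries. These groups did not overlap either (log2 fold change 0.22, SE 0.0462, edgeR adjusted p = 0.00255).

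ATF6 itself had 60.6, 60.3 and 61.5 CPM in miR372_3p libraries, against 66.9, 63.9 and 59.1 CPM in Control libraries, and the groups overlapped (log2 fold change −0.06, 95% CI −0.18 to 0.06). ERN1 had 11.9, 11.3 and 11.8 CPM, against 11.4, 12.3 and 11.7 CPM in Control libraries, with an interval of −0.19 to 0.16 on the log2 scale. The eIF2 kinases GCN2 (EIF2AK4, log2 fold change 0.06, 95% CI −0.03 to 0.15) and PERK (EIF2AK3, log2 fold change 0.24, edgeR adjusted p = 0.0884) did not pass, nor did EIF2S1, the eIF2 subunit they phosphorylate (log2 fold change 0.07). Leaving out miR372_3p replicate 2 brought EIF2AK3 past the threshold (log2 fold change 0.32, edgeR adjusted p = 0.0336), and leaving out Control replicate 3 did so for EIF2S1 (log2 fold change 0.11, edgeR adjusted p = 0.0415). Exons of EIF2S1 overlap those of ATP6V1D on the other strand, and ATP6V1D was higher in miR372_3p cells (log2 fold change 0.22, SE 0.0432).

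The ATF4 arm held the largest rise of the module. CHAC1, which breaks down glutathione and is a target of ATF4, had 23.3, 27.1 and 21.3 CPM in miR372_3p libraries, against 13.1, 11.3 and 12.6 CPM in Control libraries. The lowest miR372_3p library stood well above the highest Control library. The log2 fold change was 0.96 (SE 0.0991, 95% CI 0.73 to 1.18, edgeR adjusted p = 3.21e-05), a 1.94-fold rise.

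ATF3, a stress-induced repressor and activator of the ATF/CREB family, had 11.2, 11.6 and 9.24 CPM in miR372_3p libraries, against 5.92, 7.17 and 7.66 CPM in Control libraries (log2 fold change 0.63, SE 0.129, edgeR adjusted p = 0.00242). DDIT3, which codes for the pro-apoptotic factor CHOP, had 37.8, 31.8 and 36.0 CPM in miR372_3p libraries, against 23.4, 18.5 and 31.1 CPM in Control libraries. The groups did not overlap, but Control replicate 3 came close to miR372_3p replicate 2. Its log2 fold change was 0.53 (SE 0.153, edgeR adjusted p = 0.0144); without miR372_3p replicate 1 it was 0.48 with an adjusted p of 0.0548, and over the other libraries left out in turn the adjusted p ran from 0.000104 to 0.0481. Exons of DDIT3 overlap those of MARS1 on the other strand, and MARS1 was higher in miR372_3p cells (log2 fold change 0.18, SE 0.0335).

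PPP1R15A, the inducible counterpart of PPP1R15B, which also directs a phosphatase to eIF2, had 410, 433 and 409 CPM in miR372_3p libraries, against 316, 329 and 287 CPM in Control libraries. With the groups far apart, its log2 fold change was 0.43 (SE 0.0521, edgeR adjusted p = 9.38e-05). ASNS, the asparagine synthetase that responds to amino acid shortage, had 154, 151 and 152 CPM in miR372_3p libraries, against 127, 121 and 128 CPM in Control libraries (log2 fold change 0.28, SE 0.0373). DDIT4, an inhibitor of mTORC1, averaged 94.1 ± 0.757 CPM in miR372_3p cells and 72.5 ± 9.47 CPM in Control cells (SD, n = 3 each), and CEBPG, a dimer partner of ATF4, averaged 70.7 ± 2.49 CPM in miR372_3p cells and 61.3 ± 3.13 CPM in Control cells. These passed with log2 fold changes of 0.38 and 0.21.

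ATF4 itself had 647, 653 and 633 CPM in miR372_3p libraries, against 622, 617 and 613 CPM in Control libraries. The groups did not overlap, yet the difference was 4.34% and did not pass (log2 fold change 0.06, 95% CI −0.01 to 0.13, edgeR adjusted p = 0.130). TRIB3, a pseudokinase induced by ATF4 and CHOP, had 348, 337 and 328 CPM, against 327, 323 and 347 CPM in Control libraries, with an interval of −0.07 to 0.11 on the log2 scale. VLDLR, a lipoprotein receptor, averaged 7.34 CPM against 8.53 CPM in Control cells (log2 fold change −0.22, edgeR adjusted p = 0.102), and passed without Control replicate 3 (log2 fold change −0.29, edgeR adjusted p = 0.0438).

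The arm also held 2 genes that were lower in miR372_3p cells. ATF5, a factor translated like ATF4 under eIF2 phosphorylation, had 16, 19.8 and 17.2 CPM in miR372_3p libraries, against 25.4, 23.6 and 25.7 CPM in Control libraries (log2 fold change −0.49, SE 0.0853, edgeR adjusted p = 0.000842). Exons of ATF5 overlap NUP62 and IL4I1 on the other strand, and both were lower in miR372_3p cells (log2 fold changes −0.15 and −0.61). NUPR1, a small stress-induced nuclear protein, had 34.7, 34.4 and 30.6 CPM in miR372_3p libraries, against 40.7, 42.0 and 37.8 CPM in Control libraries (log2 fold change −0.27, SE 0.0640, edgeR adjusted p = 0.00498). In neither gene did the groups overlap.

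**Figure D3:**
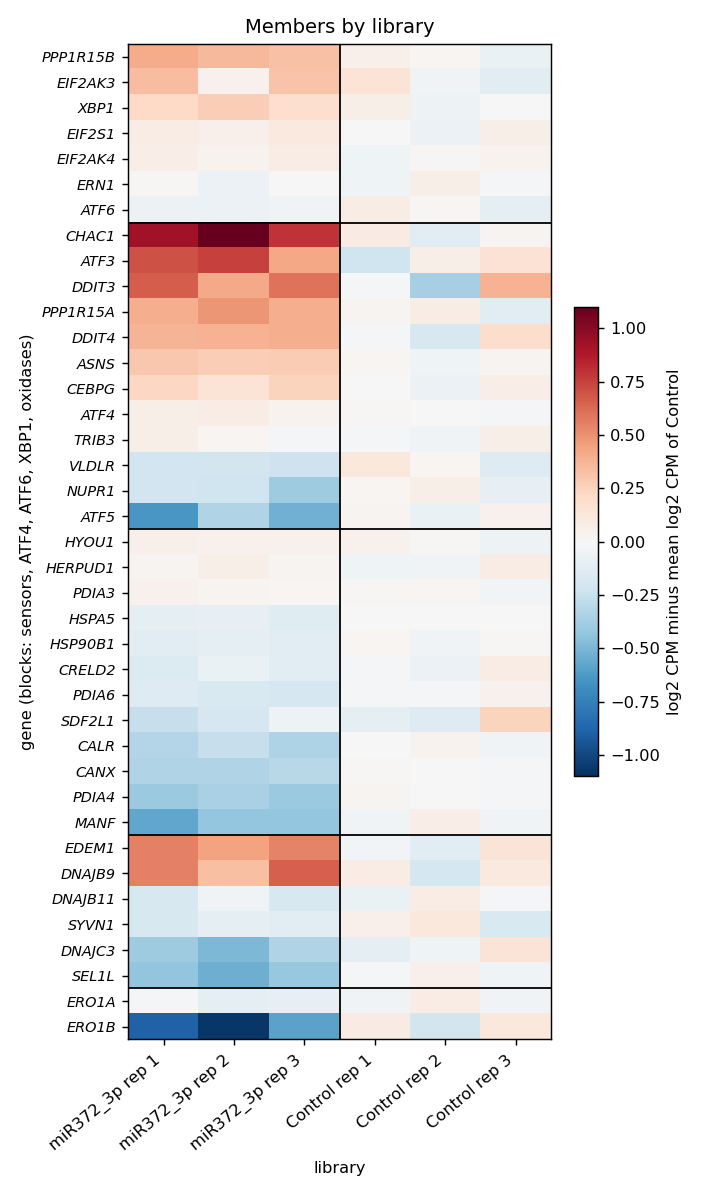
Log2 CPM of each member in each library minus the mean of the 3 Control libraries, with red for higher and blue for lower; rows are grouped into sensors, ATF4 arm, ATF6 arm, XBP1 arm and oxidases. The 3 miR372_3p columns share the red of CHAC1, ATF3, EDEM1 and DNAJB9 and the blue of MANF, PDIA4 and ERO1B, while DDIT3 varies between Control libraries.

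The ATF6 arm, the folding machinery of the ER, was lower or not past the threshold. CANX, the membrane lectin chaperone, had 620, 619 and 632 CPM in miR372_3p libraries, against 787, 780 and 770 CPM in Control libraries (log2 fold change −0.32, SE 0.0316, edgeR adjusted p = 2.22e-05). CALR, its soluble counterpart, had 627, 658 and 619 CPM, against 782, 806 and 761 CPM in Control libraries (log2 fold change −0.30, SE 0.0383, edgeR adjusted p = 0.000117). In both lectins the groups lay far apart. PDIA3, the disulphide isomerase that works with these lectins, did not fall with them: it had 290, 287 and 285 CPM in miR372_3p libraries, against 283, 285 and 276 CPM in Control libraries, with a 95% CI of −0.04 to 0.11 on the log2 scale.

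MANF, a secreted ER-resident factor, showed the largest decrease of the arm, with 40.3, 44.8 and 44.8 CPM in miR372_3p libraries, against 58.4, 63.2 and 58.5 CPM in Control libraries (log2 fold change −0.47, SE 0.0578, edgeR adjusted p = 9.55e-05). The disulphide isomerase PDIA4 had 162, 168 and 162 CPM, against 219, 214 and 212 CPM in Control libraries (log2 fold change −0.39, SE 0.0354). A further isomerase, PDIA6, averaged 313 ± 4.65 CPM in miR372_3p cells and 352 ± 10.0 CPM in Control cells (SD, n = 3 each; log2 fold change −0.17, edgeR adjusted p = 0.00294). All libraries of these 3 genes were lower in miR372_3p cells than in Control cells.

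HSPA5, which codes for BiP, the HSP70 chaperone that holds the sensors inactive, had 487, 491 and 475 CPM in miR372_3p libraries, against 522, 520 and 525 CPM in Control libraries. HSP90B1 had 750, 763 and 755 CPM, against 832, 796 and 826 CPM in Control libraries. Neither pair of groups overlapped, but the decreases were small, with log2 fold changes of −0.11 for both (SE 0.0321 and 0.0331, edgeR adjusted p = 0.0162 for HSPA5 and 0.0152 for HSP90B1). HSPA5 lost the call without miR372_3p replicate 1 (edgeR adjusted p = 0.0547), miR372_3p replicate 3 (0.0645) or Control replicate 1 (0.0566), and HSP90B1 without miR372_3p replicate 1 (0.0694) or Control replicate 1 (0.0714).

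The remaining members of this arm did not pass. HYOU1, a nucleotide exchange factor for BiP, had 185, 184 and 184 CPM in miR372_3p libraries, against 184, 179 and 171 CPM in Control libraries (95% CI −0.03 to 0.14). HERPUD1, a membrane protein of ER-associated degradation, averaged 33.7 CPM and 32.8 CPM in Control cells (95% CI −0.08 to 0.16). CRELD2 (log2 fold change −0.12, edgeR adjusted p = 0.0987) and SDF2L1 (log2 fold change −0.17, edgeR adjusted p = 0.195), both ER-resident proteins induced by the unfolded protein response, had lower means in miR372_3p cells; without Control replicate 3 the log2 fold change of SDF2L1 was −0.04. Summed over the 12 genes, the arm came to 3560, 3610 and 3550 CPM in miR372_3p libraries, against 4100, 4070 and 4060 CPM in Control libraries. This total is of counts not scaled by length, and was set largely by HSP90B1, CALR, CANX and HSPA5.

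**Figure D4:**
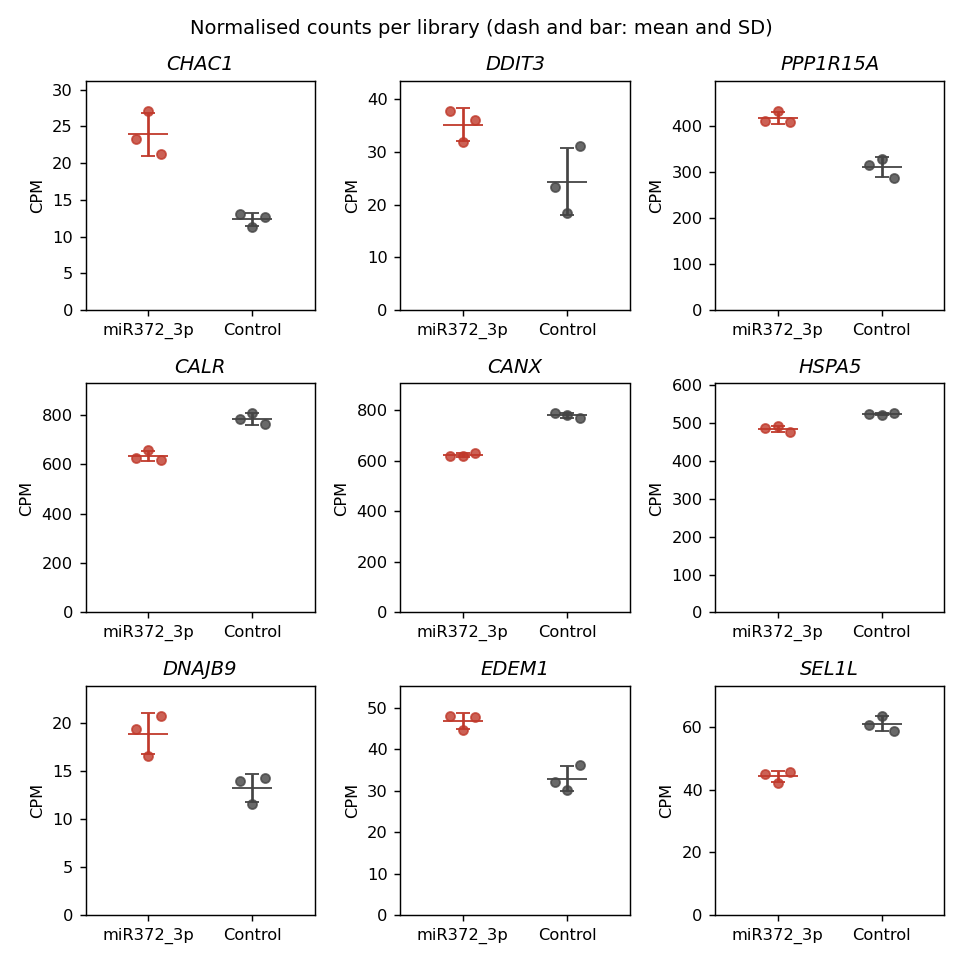
CPM of 9 members in each library, miR372_3p left and Control right, with each panel's axis starting at 0; the dash and bar give the mean and SD of 3 libraries. CHAC1 averages 23.9 against 12.3 CPM and SEL1L 44.3 against 61.1 CPM, while HSPA5 averages 484 against 522 CPM.

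The XBP1 arm, made of ER co-chaperones and degradation factors, went both ways. EDEM1, which hands misfolded glycoproteins to degradation, had 48.1, 44.6 and 47.9 CPM in miR372_3p libraries, against 32.1, 30.3 and 36.3 CPM in Control libraries (log2 fold change 0.51, SE 0.0679, edgeR adjusted p = 0.000160). DNAJB9, a co-chaperone of BiP that represses IRE1, had 19.3, 16.5 and 20.7 CPM, against 13.9, 11.5 and 14.2 CPM in Control libraries (log2 fold change 0.51, SE 0.107, edgeR adjusted p = 0.00266). Both were higher in every miR372_3p library. Exons of DNAJB9 overlap those of THAP5 and PNPLA8 on the other strand, with log2 fold changes of −0.32 and −0.06.

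SEL1L, the scaffold of the ubiquitin ligase of ER-associated degradation, had 45.1, 42.2 and 45.7 CPM in miR372_3p libraries, against 60.7, 63.7 and 59.0 CPM in Control libraries (log2 fold change −0.46, SE 0.0510, edgeR adjusted p = 4.77e-05). The ligase itself, SYVN1, averaged 37.0 CPM against 40.7 CPM in Control cells (log2 fold change −0.14, edgeR adjusted p = 0.124). It passed only when Control replicate 3 was left out (log2 fold change −0.22, edgeR adjusted p = 0.00303). Exons of SYVN1 overlap those of FAU and MRPL49. DNAJC3, which inhibits PERK and assists BiP, had 16.8, 15.6 and 17.5 CPM, against 20.6, 21.3 and 24.3 CPM in Control libraries (log2 fold change −0.41, SE 0.0822, edgeR adjusted p = 0.00217). DNAJB11, a further BiP co-chaperone, averaged 53.0 CPM against 58.1 CPM (edgeR adjusted p = 0.0836, and 0.0395 without miR372_3p replicate 2). Its exons overlap those of TBCCD1 on the other strand, which was higher in miR372_3p cells (log2 fold change 0.30).

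The ER oxidases, which pass electrons from disulphide isomerases to oxygen, differed from each other. ERO1B had 5.49, 4.85 and 6.75 CPM in miR372_3p libraries, against 10.8, 8.86 and 11 CPM in Control libraries. Every miR372_3p library was below every Control library, and its 1.79-fold decrease was the largest of the module (log2 fold change −0.84, SE 0.143, edgeR adjusted p = 0.000756). ERO1A, the more abundant of them at 16.6 against 17 FPKM, had 95.7, 89.9 and 90.5 CPM, against 93.6, 102 and 93.6 CPM in Control libraries, with a 95% CI of −0.18 to 0.04 on the log2 scale.

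Set side by side, the median log2 fold change was 0.25 in the ATF4 arm, −0.14 in the ATF6 arm and −0.14 in the XBP1 arm (−0.135 before rounding), beside 0.07 among the sensors. Taken by library, the median difference from the Control mean was 0.27, 0.21 and 0.26 in the ATF4 arm of miR372_3p replicates 1 to 3, and 0.02, −0.04 and 0.04 in Control replicates 1 to 3. In the ATF6 arm it was −0.15, −0.14 and −0.13 in miR372_3p libraries and between −0.01 and 0.00 in Control libraries (−0.008 to −0.001 before rounding). In both arms the groups stood apart. The XBP1 arm had medians of −0.18, −0.07 and −0.15, against −0.02, 0.01 and 0.05 in Control libraries, but this rests on which genes are counted: without SEL1L, DNAJC3 and DNAJB11, which also respond to ATF6, the median of the other 3 genes was 0.51. No test was made of the difference between arms.

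**Figure D5:**
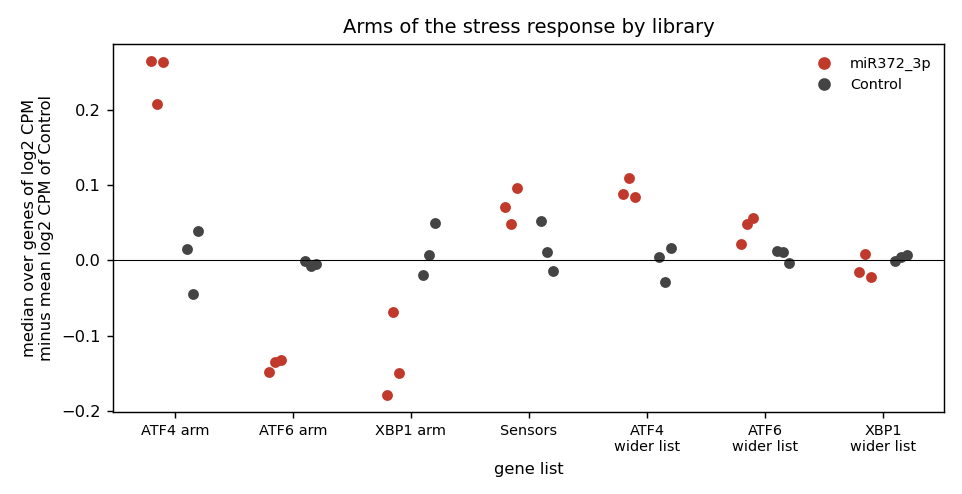
Median over the genes of each list of log2 CPM minus the mean log2 CPM of Control, 1 point per library, with miR372_3p left of Control. The ATF4 arm lies at 0.21 to 0.27 and the ATF6 arm at −0.15 to −0.13 in miR372_3p libraries; the wider ATF4, ATF6 and XBP1 lists each lie closer to 0 than the arm of the same name.

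The other genes of each pathway were taken from wider lists, and the share called in each is read beside the 54.5% of all genes. Of 34 measured genes on a wider list of ATF4 targets, 15 were higher and 4 lower (55.9% called), with a median log2 fold change of 0.09. STC2, a secreted glycoprotein hormone, rose most (log2 fold change 0.95, SE 0.0534), while the angiogenic factor VEGFA, which hypoxia also controls, fell (−0.71, SE 0.0583). Of 13 genes for eIF2, its kinases, its exchange factor and related regulators, 4 were higher and 4 lower (61.5% called). The largest changes were in OMA1, a mitochondrial protease that activates the stress response (−0.55, SE 0.0619), and EIF2B3, a subunit of the exchange factor (−0.29, SE 0.0556).

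Of 20 genes for sensor processing and ER-associated degradation, 4 were higher and 5 lower (45.0% called), and the median was 0.03. Higher calls numbered 2 without miR372_3p replicate 2. ATF6B, the paralog of ATF6, fell 2.2-fold (log2 fold change −1.14, SE 0.0667, edgeR adjusted p = 6.77e-07), beside the interval around 0 for ATF6. CREB3L2, a related membrane-bound factor, fell as well (−0.47, SE 0.0439). Of 36 genes for translocation, glycosylation and secretory traffic, which XBP1 is known to control, 8 were higher and 9 lower (47.2% called), with a median of 0.00 (0.004 before rounding); without Control replicate 1, 5 were higher. SSR3, a subunit of the translocon-associated complex, rose 1.72-fold (0.78, SE 0.0434), and SEC24D, a COPII coat protein, fell (−0.40, SE 0.0674).

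Among 11 death genes linked to CHOP and IRE1, 4 were higher and 3 lower (63.6% called). The pro-apoptotic BCL2-family genes BBC3, BCL2L11, PMAIP1 and BAK1 were the 4 that were higher (log2 fold changes 0.71, 0.66, 0.36 and 0.43); TXNIP, which binds thioredoxin, fell (−0.97, SE 0.142), as did the kinase gene MAP3K5 (−0.76, SE 0.0861) and the death receptor gene TNFRSF10B (−0.26, SE 0.0422). BAX, another pro-apoptotic member of the BCL2 family, did not pass (−0.13, SE 0.0547). Of 7 genes linked to the RNA decay or splicing activity of IRE1, 2 were higher and 3 lower (71.4% called). SPARC (log2 fold change 2.196, SE 0.0368) and SCARA3 (1.98, SE 0.0887) rose, while BLOC1S1, a widely used readout of this decay, COL6A1 and PMP22 were lower (−0.72, −1.03 and −0.46). BBC3, BCL2L11, PMAIP1, BAK1, BAX, TNFRSF10B, BLOC1S1, COL6A1 and PMP22 were named after their values were seen.

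Promoter windows of 300 bases, from 250 before to 50 after each start (RefSeq, GRCh38.p14), were available for 37 members. They were searched on both strands for the ER stress element ERSE (CCAAT and CCACG with 9 bases between them), its variant ERSE-II (ATTGG and CCACG with 1 base between them), the element UPRE (TGACGTGG) and the CARE core bound by ATF4 and C/EBP factors (TGATGNAA). ERSE was found in 8 members, CALR, CANX, CRELD2, HSP90B1, HSPA5, PDIA6, ERO1B and XBP1, where 0.159% of 10065 measured genes held it, and 0.0769% of all promoters. ERSE-II was found in HERPUD1, HYOU1 and SDF2L1 (0.119% of measured genes and 0.0541% of promoters), and UPRE in HYOU1 (1.22% of genes and 0.729% of promoters), where it overlaps an ERSE-II match. The CARE core was found in ASNS, ATF3, CEBPG, CHAC1, PPP1R15B and HERPUD1, against 2.78% of measured genes and 3.62% of promoters. These motifs were searched because they are known elements of this response. Their presence in its members is therefore a description and gives no separate result. Promoters of 6 genes are shown because they stand on both sides of the comparison; capitals mark ERSE in the next 4 and the CARE core in the last 2.
HSPA5 promoter, chr9:125241294-125241593, minus strand: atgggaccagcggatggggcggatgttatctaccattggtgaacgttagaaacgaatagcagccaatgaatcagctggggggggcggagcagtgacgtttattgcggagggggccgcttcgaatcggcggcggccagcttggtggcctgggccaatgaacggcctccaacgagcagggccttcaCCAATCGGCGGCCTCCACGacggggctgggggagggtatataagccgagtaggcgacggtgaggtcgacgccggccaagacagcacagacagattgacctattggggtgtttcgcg
HSP90B1 promoter, chr12:103930160-103930459, plus strand: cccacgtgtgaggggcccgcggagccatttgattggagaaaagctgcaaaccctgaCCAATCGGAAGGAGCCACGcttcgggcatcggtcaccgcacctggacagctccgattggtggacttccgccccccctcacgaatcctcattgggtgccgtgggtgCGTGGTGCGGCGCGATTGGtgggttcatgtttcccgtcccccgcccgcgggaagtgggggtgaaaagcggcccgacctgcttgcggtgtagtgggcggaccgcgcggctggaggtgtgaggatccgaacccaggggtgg
CALR promoter, chr19:12938359-12938658, plus strand: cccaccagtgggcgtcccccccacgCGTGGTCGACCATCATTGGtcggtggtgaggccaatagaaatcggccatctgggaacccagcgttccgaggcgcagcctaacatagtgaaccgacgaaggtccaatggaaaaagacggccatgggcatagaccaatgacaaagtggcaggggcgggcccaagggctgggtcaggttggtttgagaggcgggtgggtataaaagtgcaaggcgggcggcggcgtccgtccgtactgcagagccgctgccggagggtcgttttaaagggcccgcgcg
XBP1 promoter, chr22:28800520-28800819, minus strand: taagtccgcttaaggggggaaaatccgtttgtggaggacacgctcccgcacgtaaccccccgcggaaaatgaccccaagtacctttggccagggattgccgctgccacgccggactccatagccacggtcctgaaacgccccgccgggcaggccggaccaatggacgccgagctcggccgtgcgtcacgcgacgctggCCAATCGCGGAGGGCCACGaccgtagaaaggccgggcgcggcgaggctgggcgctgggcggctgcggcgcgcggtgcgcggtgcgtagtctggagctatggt
CHAC1 promoter, chr15:40953221-40953520, plus strand: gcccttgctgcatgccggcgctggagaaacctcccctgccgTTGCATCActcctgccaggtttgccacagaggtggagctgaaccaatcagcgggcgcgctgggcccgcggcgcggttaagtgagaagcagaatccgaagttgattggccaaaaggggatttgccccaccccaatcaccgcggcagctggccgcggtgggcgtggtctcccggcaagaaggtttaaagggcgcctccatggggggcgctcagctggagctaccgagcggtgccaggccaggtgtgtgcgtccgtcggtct
ASNS promoter, chr7:97872359-97872658, minus strand: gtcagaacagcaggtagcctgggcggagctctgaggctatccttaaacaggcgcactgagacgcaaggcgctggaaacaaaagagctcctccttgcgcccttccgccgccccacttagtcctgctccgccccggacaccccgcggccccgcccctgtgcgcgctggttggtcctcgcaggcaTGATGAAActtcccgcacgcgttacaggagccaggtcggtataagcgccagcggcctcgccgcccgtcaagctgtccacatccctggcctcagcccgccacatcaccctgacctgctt

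Of the 8 members with ERSE, 6 were lower in miR372_3p cells, XBP1 was higher and CRELD2 did not pass. Of the 8 other measured genes with ERSE, 1 was lower and 3 were higher. These other genes are few and not separate from the stress response. They include SERP1, on the wider XBP1 list, and ALG12, whose exons overlap those of CRELD2 on the other strand. The 3 members with ERSE-II did not pass. Of the 6 members with the CARE core, 5 were higher and none was lower, whereas among 274 other genes with it 28.5% were higher and 36.1% lower. These matches describe letters in a window and show no binding. Neighbouring genes were not checked for shared promoter regions.

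Sites for miR-372-3p were sought in the longest annotated 3′ UTR of each gene (GENCODE 29, GRCh38), which need not be the one these cells use. The 8-base match AGCACTTA was the best match of ERN1, SEL1L and VLDLR (4.05% of 12192 genes searched), and the 7-base match AGCACTT that of ATF5, ATF6, EIF2AK4, EIF2S1, ERO1B, HSPA5 and NUPR1 (21.5%). Of these 10 members, 5 were lower in miR372_3p cells and none was higher, where 32.1% of 3112 genes with such a site were lower and 26.2% higher. Of the 29 members without one, 11 were higher and 7 lower, where 27.3% of 9080 genes without one were higher and 26.6% lower. Sites were matched by their letters alone, repeats included. The sites of the 3 members with an 8-base match and of ERO1B are shown in a window of 30 bases, the match in capitals; coordinates are those of the 7 bases AGCACTT.
SEL1L site, chr14:81474121-81474127, minus strand: atgtattgtttAGCACTTAactcagatgaa
ERN1 site, chr17:64041829-64041835, minus strand: tattttatttgAGCACTTAgtgtattgagc
VLDLR site, chr9:2659069-2659075, plus strand: atggctgccaaAGCACTTAaaatctccttt
ERO1B site, chr1:236216218-236216224, minus strand: tttaaaaacccAGCACTTgataatataact

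Of the 3 members with an 8-base match, SEL1L fell by 27.4%, while VLDLR and ERN1 did not pass. Over all 494 genes with it as their best match, 44.7% were lower and 21.1% higher (median log2 fold change −0.13). With the 7-base match as best, 29.7% of 2618 genes were lower and 27.2% higher (median −0.01). ERO1B, the member that fell most, held 1 match to AGCACTT. None of the 10 members with a match of 8 or 7 bases was higher. Over all genes searched, changes in both directions occurred with and without such a match. Whether the sites set any of these changes was not tested. Among the 2 most changed called genes of each wider list, ATF6B and CREB3L2, which fell, had an 8-base match as their best. The 7-base match AGCACTT was the best of VEGFA, TXNIP and OMA1, which fell, and of SPARC, which rose. STC2, which rose, had as its best another 7-base match, the last 7 bases of AGCACTTA. Genes with that form as their best (3.63% of those searched) are counted above as without a site, and no member is among them. CHAC1, DDIT3, ATF3 and PPP1R15A, which rose, had no match of even 6 bases, and neither had MANF, PDIA4, CALR and HSP90B1, which fell. A 6-base match was the best of PPP1R15B, DNAJB9 and EDEM1, which rose, and of CANX and DNAJC3, which fell.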

How the data were processed

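RNA was taken from 6 samples of JHH-4 cells, 3 per group, and grouped by title. Per the labels' protocols, the library kit was NEBNext Ultra RNA, and that kit marks no strand. Per the file headers, the authors' deposited table gives each library's counts and FPKM; it also gives the authors' p-value and log2 fold change. HISAT2 2.0.4, StringTie 2.2.1, DESeq2 1.38.3 and GRCh38 are listed, without their steps, per the submitters' processing notes, and the read counting step is not given there. Deposited FPKM values, scaled by the authors, were used for levels only.

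Of 14006 rows, 1610 unnamed loci (2.64 to 3.63% of counts) were left out and 12396 genes kept; no row has under 208 counts in all. The main test used edgeR 4.0.16 under R 4.3.3 on the counts (TMM, quasi-likelihood F-test, 2 groups, Benjamini-Hochberg over all genes, threshold 0.05); filterByExpr removed 0 genes. The fit was tested on simulated data. In the authors' deposited table the members' log2 fold changes differed from these by at most 0.0009. Members, lists and motifs were chosen with earlier results of these data known. All members are named, with the 2 most changed called genes of each wider list. No pair of replicates was within counting noise of each other (chi-square over degrees of freedom from 6.86 to 38.6). Exons of 19 members overlap another annotated gene, and ATF4, ASNS, PDIA3 and XBP1 have named pseudogenes, so their counts are uncertain. Per-sample columns left without a sample numbered 0. Values of 1 measured marker and 1 site sequence are not reported here.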

Additional observations from a re-analysis of the deposited data

How the results depend on the processing

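Every member kept its direction and its side of the threshold with RLE size factors, with DESeq2, with a minimum mean of 5 CPM and with unnamed rows kept (39 of 39 in each). At an adjusted p under 0.01, 10 members were higher and 10 lower, against 11 and 12. Leaving out each library in turn gave 10 to 12 higher and 10 to 14 lower; the log2 fold change of TRIB3 ran from −0.0 (without miR372_3p replicate 1) to 0.053, and that of ERN1 from −0.044 to 0.02 (without Control replicate 2; 0.004 without miR372_3p replicate 2). Over the same fits the medians ran from 0.059 to 0.106 for the sensors, 0.222 to 0.272 for the ATF4 arm, −0.16 to −0.107 for the ATF6 arm, −0.179 to −0.081 for the XBP1 arm and −0.52 to −0.399 for the oxidases. Without genes of both ATF6 and XBP1 the ATF6 arm was at −0.12 and the XBP1 arm at 0.511; the change in the members counted sets this.

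For the wider lists, leaving out a library gave medians of 0.066 to 0.121 for ATF4 targets and −0.027 to 0.013 for eIF2 genes. They ran from 0.01 to 0.045 for sensor processing and degradation and from −0.014 to 0.024 for secretory genes. Medians were −0.065 to 0.014 for death genes and −0.203 to −0.137 for genes of IRE1 decay or splicing. Higher calls ran from 2 to 6 for sensor processing and degradation (2 without miR372_3p replicate 2) and from 5 to 11 for secretory genes (5 without Control replicate 1). Medians within 0.1 of 0 are therefore not given as a direction.

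Same-numbered libraries did not deviate together (correlations −0.136, −0.0517 and 0.103), so the numbers do not pair them; with a replicate block 11 members were higher and 13 lower, the added call being DNAJB11 (adjusted p = 0.0462). The member with the fewest counts in any library, ERO1B, had at least 245.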

Other observations

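The deposited FPKM and the counts of ATF4 did not follow each other between libraries. Its FPKM was 307, 395 and 300 in miR372_3p replicates 1 to 3 and 383, 376 and 287 in Control replicates 1 to 3, while its CPM stayed within 633 to 653 in miR372_3p libraries and 613 to 622 in Control libraries. NUPR1 likewise had 21.0, 13.6 and 14.7 FPKM in miR372_3p libraries and 19.5, 20.6 and 15.1 FPKM in Control libraries. XBP1, called higher on counts, had 47.9, 50.6 and 46.8 FPKM in miR372_3p libraries and 47.1, 43.8 and 42.1 FPKM in Control libraries. By FPKM its groups therefore overlapped, and the log2 ratio of its means was 0.13 beside the fitted 0.22. The mean FPKM of ATF4, HERPUD1 and ERN1 differed between groups in the opposite direction to the fitted log2 fold change; none of these 3 was called.

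Outside the module, 9 measured genes held ERSE-II in their promoter window, of which 6 were lower in miR372_3p cells and 0 higher (edgeR adjusted p under 0.05), where 27.7% of all genes were lower and 26.8% higher. They were NUCB1 (−0.36), GYS1 (−0.55), NAV2 (−0.47), SHCBP1 (−0.53), CAMTA1 (−0.29) and RUVBL2 (−0.14). These genes are few and were named after their values were seen. Whether any of them share a promoter region was not checked. The 3 members with ERSE-II did not pass.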
